A study of Mus musculus with 5 samples.

Results

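Axon guidance ligands and receptors were followed in ribosome-bound RNA of the central amygdala (CeA). The genes were taken by name, as every gene whose symbol begins with Sema, Slit, Robo or Ntn and a digit, or with Plxna, Plxnb, Plxnc, Plxnd, Epha, Ephb, Efna, Efnb or Unc5, together with Nrp1, Nrp2 and Dcc. This took 65 of the 15093 genes listed, namely 32 ligands, 32 receptors and Unc50, which shares only the first letters of its name with the netrin receptors and is a Golgi protein. The study sequenced RNA from tagged ribosomes (TRAP, translating ribosome affinity purification) to find which transcripts of Drd2 neurons differ after fear learning. Mice of both groups were adult Drd2-TRAP animals, in which a Drd2-Cre BAC transgene switches on the Rosa26 EGFP/Rpl10a allele, so the tag marks any cell in which that transgene is or was active. There were 3 fear conditioned libraries (replicates 2, 3 and 4) and 2 home cage libraries (replicates 6 and 7), each from bilateral punches pooled from 3 animals, with brains taken 2 h after the session. The labels name home cage controls and collection after fear extinction, and the methods of the study also write HC for these controls, while its results text describes controls that heard the tone and collection after conditioning.

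Guidance molecules steer growing axons by attraction or repulsion, and many stay expressed in the adult brain, where they act on spines, synapses and glia. Semaphorins signal through plexins, with neuropilins as co-receptors for the secreted class 3. Slits bind Robo receptors, netrins bind Dcc and the Unc5 receptors, and membrane-bound ephrins bind Eph receptor tyrosine kinases and can also signal back into the cell that carries them.

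The libraries held between 19605318 and 27937520 reads on genes, as recovered from the values, and 3 reads, taken as the floor, were worth 0.1002 to 0.158 CPM (the scaled unit of the authors, in which a library sums to between 932938 and 1042030). That floor covers counting error only. The home cage libraries listed 976 and 2681 genes at 0, and the fear conditioned libraries between 159 and 349. Markers of D2-type striatal projection neurons were abundant in every library, with Drd2 at 326 to 555 CPM after fear conditioning and 128 to 262 CPM in the home cage, and their sum (11 of 12 listed genes found, none at 0) was 22751 to 23955 against 8762 to 14009 CPM. Drd1a, the receptor that marks the other main striatal type, was at 33.9 to 83.5 CPM after fear conditioning and at 15.2 and 27.6 CPM in the home cage, and the sum of 7 D1 markers was 248 to 450 against 131 to 236 CPM. Sums of the 10 choroid plexus markers (63.0 to 113 against 1063 to 1469 CPM) and of the 10 astrocyte markers (913 to 1154 against 2366 to 3006 CPM) went the other way, as did those of 10 oligodendrocyte markers (1329 to 2827 against 2899 to 5541 CPM), 13 pallial glutamatergic markers (79.5 to 263 against 447 to 538 CPM) and 11 central amygdala neuron markers (439 to 641 against 767 to 842 CPM). Single markers did not all follow these sums. In these 5 lists, in that order, 6, 6, 4, 5 and 5 markers lay below both controls in every fear conditioned library. Above both lay 0, 0, 0, 2 and 2. Of all genes tested, 16.1% lay below and 20.2% above. Ttr, the leading choroid plexus transcript, was at 0.348 to 22.1 CPM after fear conditioning and at 913 and 1320 CPM in the home cage. It thus made up most of the choroid plexus sum in the home cage libraries. After fear conditioning most of that sum was Clic6, at 50.9 to 77.2 CPM. Clic6 was at 51.1 and 64.2 CPM in the home cage, so its groups overlapped. In such bulk samples fewer cells of a type and less RNA per cell cannot be told apart, and the part that this makeup plays in the values of the guidance genes was not tested.

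Levels per gene length differed widely across the families. Unc50 had the highest level, at 48.5 CPM per kb over the 5 libraries, followed by the transmembrane ephrin Efnb3 (37.3 CPM per kb), the membrane semaphorin Sema6b (22.2 CPM per kb) and the netrin receptor Unc5a (20.8 CPM per kb). Efna3, a lipid-anchored ephrin, and Epha4, a receptor for ephrins of both classes, lay at 17.3 and 17.0 CPM per kb. Only these 6 exceeded 10 CPM per kb, and 46 of the 65 exceeded 1 CPM per kb. The median guidance gene stood at the 31.9th percentile of all genes listed, a modest level per length among these genes.

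**Figure D1:**
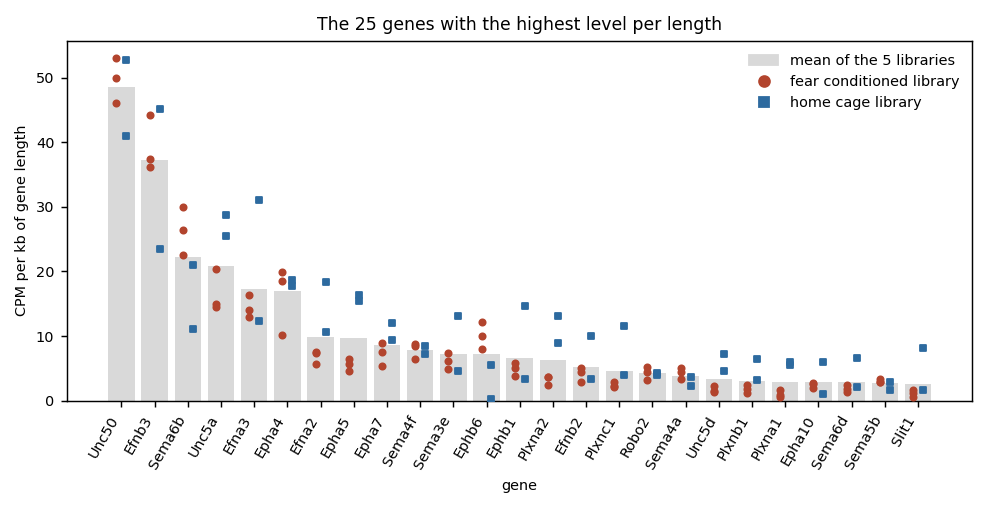
Level per gene length (CPM per kb) of the 25 guidance genes with the highest mean, as grey bars for the mean of the 5 libraries and points for single libraries. Unc50 and Efnb3 lead at 48.5 and 37.3 CPM per kb, and the squares of the home cage libraries lie above the fear conditioned points for Epha5, Plxna2 and Plxna1.

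The 3 fear conditioned libraries and the 2 home cage libraries were then compared, to ask which guidance genes differed after fear learning. Genes with lower values after fear conditioning were mostly receptors, among them plexins and Eph and Unc5 receptors, while ligands went both ways. No guidance gene passed both cutoffs of the study (adjusted p under 0.05, absolute log2 fold change over 0.5) in limma on log2(CPM + 1). That is 0 of 62 genes tested, where 0% of all 13560 genes passed. No guidance gene had an adjusted p lower than 0.197, which was also the smallest over all genes. Genes that share this value are not ranked by it. With the threshold set at 0.05 for the unadjusted p, 10 of the 62 were lower after fear conditioning (16.1%, against 7.32% of all genes) and 3 were higher (4.84%, against 9.49%). In 15 of the 62 every fear conditioned library lay below both home cage libraries (24.2%, against 16.1% of all genes), and in 7 every one lay above (11.3%, against 20.2%). Robo3, Robo4 and Efna5 had a mean under 1 CPM and were not tested. Sema3b, Sema4c and Sema6c reached that mean only through the fear conditioned group, and Ephb4 and Sema3d only through the home cage group, so a difference in these genes was partly set by the filter.

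The median log2 fold change was -0.24 over the guidance genes tested (26 above 0 and 36 below) and 0.08 over all genes. The receptors had a median of -0.57, with 22 of 30 below 0, and the ligands one of 0.09, with 14 of 31 below 0. Of the 10 lower genes at an unadjusted p under 0.05, 9 were receptors. The receptor median kept its sign in all of the 15 fits made, between -1.07 and -0.26, whereas the ligand median lay between -0.25 and 0.26.

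**Figure D2:**
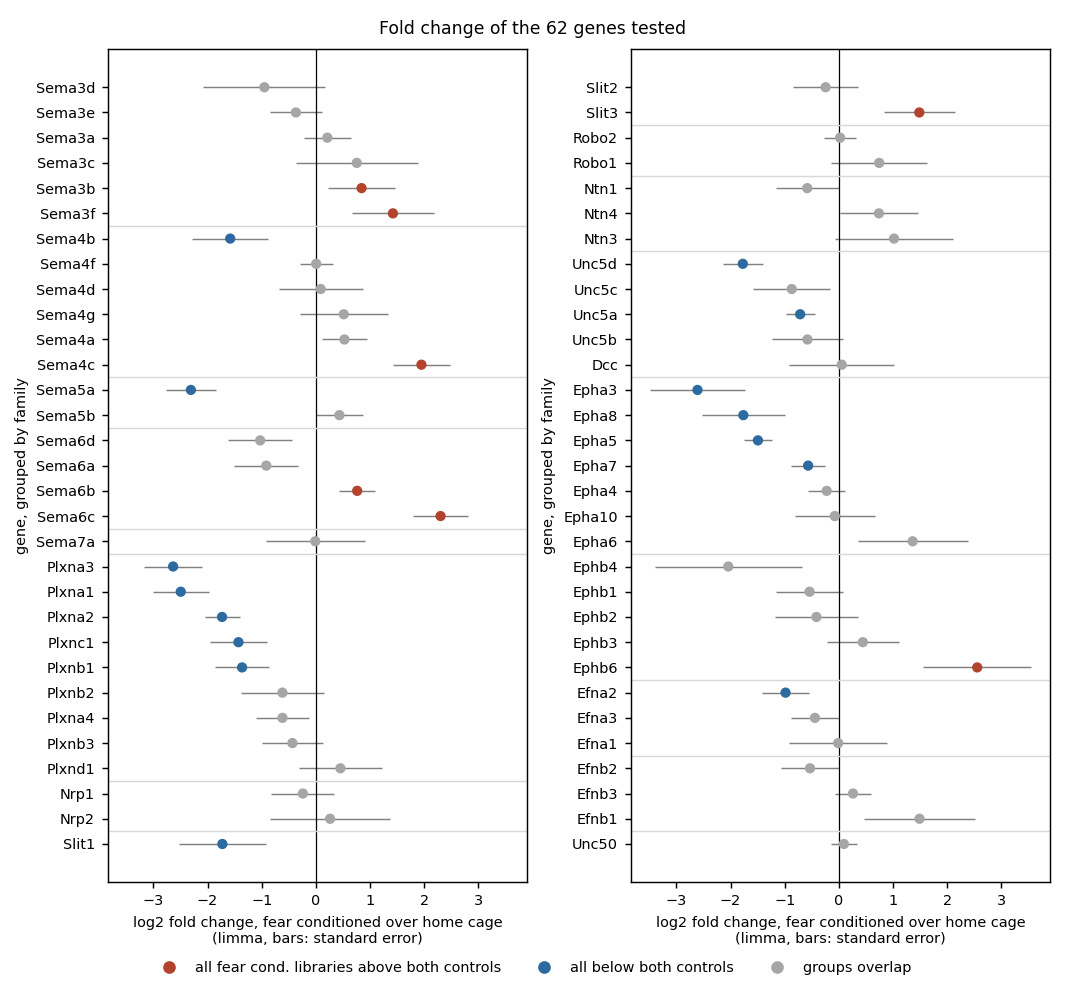
Log2 fold change of fear conditioned over home cage (limma on log2(CPM + 1), bars for the standard error) of the 62 guidance genes tested, ordered by family. Blue points, where all fear conditioned libraries lie below both controls, number 15 and include 5 plexins and 4 EphA receptors, while the 7 red points lie on the other side.

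The promoters of 4 genes that lay lower in every fear conditioned library, 3 plexins and a semaphorin, are given so that their sequence can be read beside the values. They run from 250 bases before to 50 bases after the start of the gene in RefSeq (GRCm38.p6), read on the strand of the gene: chr1:194619579-194619878 (plus strand) for Plxna2, chrX:74328816-74329115 (plus strand) for Plxna3, chr10:94944796-94945095 (minus strand) for Plxnc1 and chr15:32244563-32244862 (plus strand) for Sema5a. Capitals mark the GC box (GGGCGG or CCGCCC) and the core of the cyclic AMP response element (TGACG or CGTCA), the element bound by the activity-regulated factor CREB.
Plxna2: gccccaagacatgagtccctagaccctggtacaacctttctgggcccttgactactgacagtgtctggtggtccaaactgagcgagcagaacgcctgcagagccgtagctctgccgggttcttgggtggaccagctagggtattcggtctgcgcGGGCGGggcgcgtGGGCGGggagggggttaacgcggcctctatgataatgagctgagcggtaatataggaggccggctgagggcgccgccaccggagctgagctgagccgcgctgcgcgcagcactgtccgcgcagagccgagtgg
Plxna3: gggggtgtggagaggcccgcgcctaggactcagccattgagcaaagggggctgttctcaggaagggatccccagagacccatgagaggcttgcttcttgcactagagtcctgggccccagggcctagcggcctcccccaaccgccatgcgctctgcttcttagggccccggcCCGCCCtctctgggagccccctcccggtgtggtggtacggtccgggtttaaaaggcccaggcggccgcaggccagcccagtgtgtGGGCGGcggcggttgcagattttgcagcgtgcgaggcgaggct
Plxnc1: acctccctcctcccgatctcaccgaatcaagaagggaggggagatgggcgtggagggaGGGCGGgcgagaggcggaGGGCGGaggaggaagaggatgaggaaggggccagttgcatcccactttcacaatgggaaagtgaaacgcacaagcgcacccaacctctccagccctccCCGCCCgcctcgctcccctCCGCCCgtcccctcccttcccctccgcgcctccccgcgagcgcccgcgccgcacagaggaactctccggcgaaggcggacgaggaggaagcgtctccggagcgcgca
Sema5a: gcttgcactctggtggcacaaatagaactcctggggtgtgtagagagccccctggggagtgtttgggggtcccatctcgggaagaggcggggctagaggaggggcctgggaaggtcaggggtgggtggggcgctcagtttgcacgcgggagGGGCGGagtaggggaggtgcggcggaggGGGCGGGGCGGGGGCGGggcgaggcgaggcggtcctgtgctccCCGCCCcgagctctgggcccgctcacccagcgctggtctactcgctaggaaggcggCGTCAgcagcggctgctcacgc
None of the 4 held a full cyclic AMP response element (TGACGTCA) or a TATA box (TATAAA), and only Sema5a held the core alone. RefSeq promoters were found for 55 of the 65 genes, 71 in all. On either strand, the GC box was present in 71.8% of these, against 35.7% of all 32851 promoters, and the core, which also lies within the full element, in 12.7% against 20.8%. The full element was in 0% against 1.79%, the AP-1 site (TGANTCA) in 4.23% against 7.81%, the E-box (CACGTG) in 7.04% against 7.15% and the TATA box in 2.82% against 13.6%. The promoters of guidance genes had a median of 21 CpG dinucleotides, against 7 over all promoters. These are matches of letters only.

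The plexins, the receptors of semaphorins, had the lowest median log2 fold change of the 15 families. The 9 plexins together summed to 133, 133 and 141 CPM in fear conditioned replicates 2, 3 and 4, and to 457 and 364 CPM in home cage replicates 6 and 7. That median was -1.36, 8 of 9 were below 0, and in 5 all fear conditioned libraries lay below both controls, where 16.1% of all genes did so. In the 15 fits made the median of the plexins lay between -1.85 and -0.69.

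Plxna1 (ENSMUSG00000030084), a signalling partner of the neuropilins, was at 14.6, 7.75 and 5.26 CPM in the fear conditioned replicates 2, 3 and 4 and at 50.6 and 54.5 CPM in the home cage replicates 6 and 7. Both controls stood well above every fear conditioned library, at a mean of 52.5 ± 2.77 (SD, n = 2) against 9.19 ± 4.81 CPM (SD, n = 3), or 5.72-fold. Its log2 fold change was -2.50 (SE 0.52, adjusted p 0.197 in limma).

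Plxna2 (ENSMUSG00000026640), which binds class 6 semaphorins, had the highest level of the plexins, at 35.6, 55.4 and 56.3 CPM after fear conditioning and 134 and 196 CPM in the home cage. The groups did not overlap, and the home cage mean was 3.36-fold higher (165 ± 44.2 CPM, SD, n = 2, against 49.1 ± 11.7 CPM, SD, n = 3). The log2 fold change was -1.73 (SE 0.32, adjusted p 0.197 in limma).

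Plxna3 (ENSMUSG00000031398), an X-linked receptor for secreted semaphorins with the neuropilins, was at 5.60, 2.92 and 3.82 CPM after fear conditioning and 36.4 and 24.8 CPM in the home cage. It had the lowest log2 fold change of the guidance genes, -2.64 (SE 0.53, adjusted p 0.197 in limma), with a home cage mean 7.44-fold higher. The fourth A plexin, Plxna4, differed less, with a log2 fold change of -0.62 and groups that overlapped.

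Plxnb1, the receptor for Sema4d, was at 21.3, 10.2 and 16.7 CPM after fear conditioning and at 58.1 and 29.2 CPM in the home cage. Plxnc1, the receptor for Sema7a, was at 16.2, 20.7 and 14.95 CPM against 80.8 and 28.2 CPM. In both genes home cage replicate 6 was the far library, with replicate 7 only a little above the highest fear conditioned value. Their log2 fold changes were -1.36 and -1.43 (SE 0.50 and 0.52, adjusted p 0.262 and 0.257 in limma). Plxnb2, Plxnb3 and Plxnd1 overlapped between groups, with log2 fold changes of -0.62, -0.43 and 0.45. Without home cage replicate 7 all 9 plexins were below 0, and without replicate 6 there were 7.

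**Figure D3:**
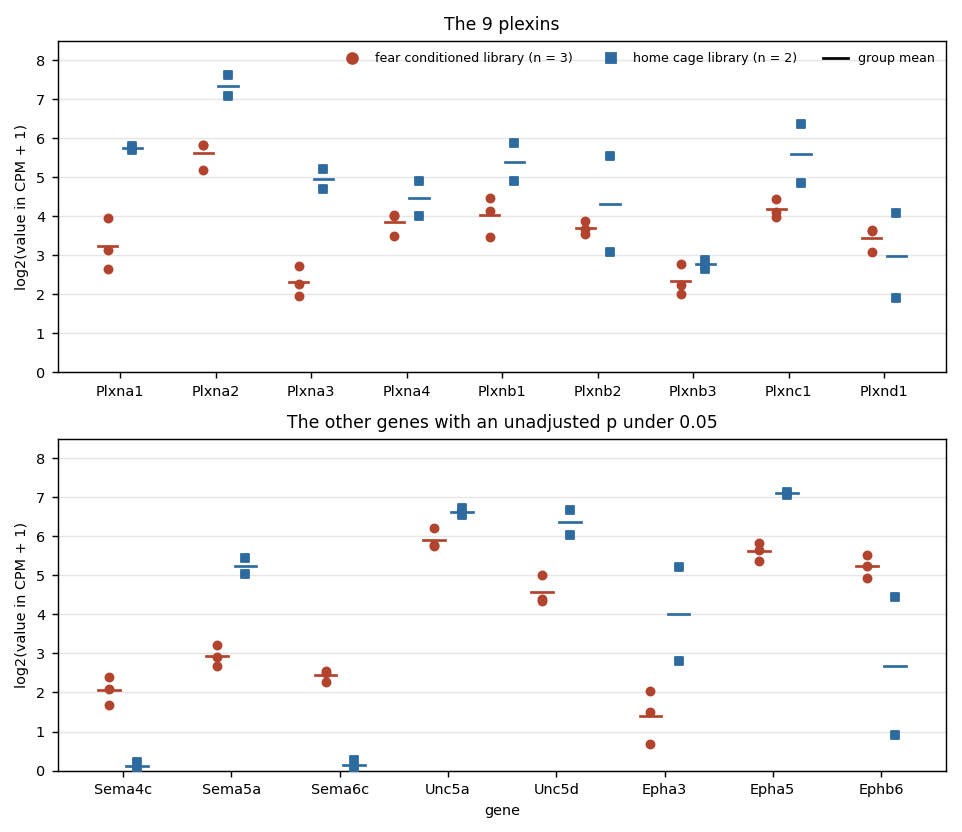
Values of the 9 plexins (top) and of the 8 other guidance genes with an unadjusted p under 0.05 (bottom) in each library, as log2(CPM + 1), with lines for group means. Plxna1, Plxna2, Plxna3, Sema5a and Epha5 show 2 close home cage squares above all 3 fear conditioned circles, while Plxnb2, Plxnd1, Epha3 and Ephb6 have home cage squares far apart.

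The neuropilins, which hold class 3 semaphorins for the plexins, gave no separation. Nrp1 was at 10.95, 12.8 and 10.8 CPM after fear conditioning and at 7.95 and 23.4 CPM in the home cage. The controls thus lay on either side of the fear conditioned group. Nrp2 spanned 70.5-fold between the home cage libraries alone.

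Among the semaphorins themselves the direction was mixed, with 12 of 19 above 0 and a median log2 fold change of 0.21. Their groups did not overlap in 5 higher and 2 lower genes (20.2% and 16.1% of all genes). Of the higher ones, Sema3b, Sema4c and Sema6c passed the filter on low values only through the fear conditioned group. Sema5a (ENSMUSG00000022231), a transmembrane semaphorin with thrombospondin repeats, was at 5.45, 8.37 and 6.50 CPM after fear conditioning and at 42.9 and 32.0 CPM in the home cage. Every fear conditioned library lay far below both controls, and the home cage mean was 5.53-fold higher (37.5 ± 7.73 CPM, SD, n = 2, against 6.78 ± 1.48 CPM, SD, n = 3). The log2 fold change was -2.31 (SE 0.46, adjusted p 0.197 in limma).

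Sema4c and Sema6c, both transmembrane semaphorins, lay on the other side and were nearly absent from the home cage libraries. Sema4c was at 2.23, 3.25 and 4.27 CPM after fear conditioning, at 0.167 CPM (5 reads) in home cage replicate 6 and at 0 in replicate 7. Sema6c was at 3.79, 4.66 and 4.87 CPM after fear conditioning, at 0 in home cage replicate 6 and at 0.211 CPM (4 reads) in replicate 7. Both passed the filter on low values only through the fear conditioned group, and the controls were at a few reads or none, where home cage replicate 7 also listed the most genes at 0 of any library. Their log2 fold changes on the log2(CPM + 1) scale, which understates changes of low genes, were 1.95 and 2.30 (SE 0.52 and 0.51, adjusted p 0.206 and 0.197 in limma).

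Other abundant semaphorins differed less between groups. Sema6b, a ligand of A plexins, was at 89.4, 119 and 104 CPM after fear conditioning and at 83.3 and 44.1 CPM in the home cage, with no overlap between groups and a log2 fold change of 0.76 (SE 0.34). Sema3e, a secreted ligand that binds Plxnd1 directly, was at 40.5, 50.4 and 60.8 CPM against 38.5 and 108.5 CPM. Sema4f was at 32.95, 43.9 and 45.3 CPM against 43.3 and 37.3 CPM, and the groups overlapped. Sema7a, which is anchored by lipid and binds Plxnc1, was at 4.60, 6.50 and 9.78 CPM against 1.94 and 19.4 CPM, with the controls again at the extremes. Of the remaining semaphorins, Sema3b and Sema3f lay above both controls in every fear conditioned library and Sema4b lay below both.

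The netrin receptors of the Unc5 family, which mediate repulsion, had log2 fold changes below 0 in all 4 members in the main limma fit. Without home cage replicate 6 there were 3 below 0. In the 15 fits made their median lay between -1.265 and -0.362. Unc5a (ENSMUSG00000025876), the most abundant of them per length, was at 54.0, 73.6 and 52.6 CPM after fear conditioning and at 104 and 92.3 CPM in the home cage, without overlap. Unc5d (ENSMUSG00000063626) was at 19.3, 31.1 and 20.1 CPM against 65.2 and 101 CPM, with a home cage mean 3.52-fold higher. The log2 fold changes were -0.72 for Unc5a and -1.77 for Unc5d (SE 0.27 and 0.37, adjusted p 0.266 and 0.197 in limma). Unc5b, Unc5c and the attractive receptor Dcc overlapped between groups, and Dcc was at 0 in home cage replicate 7 but at 6.78 CPM in replicate 6.

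The netrins were low. Ntn1, the main secreted netrin, was at 6.64, 3.71 and 6.26 CPM after fear conditioning and at 6.34 and 11.5 CPM in the home cage, and the groups overlapped. Ntn3 was at 0 in home cage replicate 7 and at 11.2 CPM in replicate 6, and Ntn4 spanned 50.7-fold between these libraries.

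Slits and Robos showed no common direction. Slit1, the most neural of the Slits, was at 10.4, 7.37 and 3.67 CPM after fear conditioning and at 53.4 and 10.8 CPM in the home cage, so that replicate 7 stood barely above the highest fear conditioned library. Slit3 lay the other way, above both controls in every fear conditioned library, with a log2 fold change of 1.49 (SE 0.66). Robo2, the leading Slit receptor by level, was at 49.2, 68.8 and 82.0 CPM against 66.2 and 62.2 CPM, a log2 fold change of 0.02 (SE 0.30). Robo3 was at 0.379, 1.17 and 1.99 CPM after fear conditioning and at 0 in both controls. That is at least 9.11-fold higher against a floor of 3 reads in each home cage library. Every gene listed reached at least 1.00 CPM in some library, and Robo3 did so only after fear conditioning. Its difference was thus partly set by which genes are listed.

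Among the Eph receptors, EphA members tended lower (6 of 7 below 0, median log2 fold change -0.57) and EphB members were mixed. Epha5 (ENSMUSG00000029245), a neuronal receptor for lipid-anchored ephrins, was at 55.4, 49.6 and 40.0 CPM after fear conditioning and at 140.7 and 133 CPM in the home cage. Both groups were tight and did not overlap, with a home cage mean 2.83-fold higher (137 ± 5.16 CPM, SD, n = 2, against 48.4 ± 7.78 CPM, SD, n = 3). The log2 fold change was -1.50 (SE 0.26, adjusted p 0.197 in limma).

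Epha3 was at 0.616, 1.83 and 3.08 CPM after fear conditioning and at 6.04 and 36.2 CPM in the home cage, lower in every fear conditioned library but with controls 5.99-fold apart. Its log2 fold change was -2.61 (SE 0.88, adjusted p 0.242 in limma). Epha4, the most abundant Eph receptor per length, was at 63.9, 117 and 126 CPM against 117 and 112 CPM, and only fear conditioned replicate 2 stood apart. Epha7 and Epha8 also lay below both controls in every fear conditioned library, with log2 fold changes of -0.57 and -1.76.

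Ephb1 was at 28.8, 37.5 and 44.1 CPM after fear conditioning and at 25.5 and 110.0 CPM in the home cage, where replicate 7 alone was high. Ephb4 was at 0.379, 0.167 and 0.596 CPM against 0.0334 CPM (1 read) and 29.8 CPM, so its group difference was that of home cage replicate 7. Ephb6, which lacks kinase activity, was at 29.4, 37.1 and 44.9 CPM against 20.6 and 0.896 CPM. It lay outside the rule for genes described in full and was taken after its values were seen, because its log2 fold change of 2.55 (SE 1.00) was the highest of the guidance genes. Its size rested on replicate 7, as it was 0.80 without that library.

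The ephrins, the ligands of these receptors, mostly overlapped between groups. Efnb3 was at 115, 119 and 140.4 CPM after fear conditioning and at 74.6 and 143 CPM in the home cage. Efna3 was at 31.3, 33.9 and 39.8 CPM against 30.1 and 75.3 CPM. In both genes home cage replicate 7 was the highest library and replicate 6 the lowest, and the log2 fold changes were 0.26 and -0.44. Efna2 alone lay below both controls in every fear conditioned library, at -0.98 (SE 0.44). Unc50, the name match, was at 95.1, 89.4 and 82.4 CPM against 94.4 and 73.4 CPM and overlapped.

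**Figure D4:**
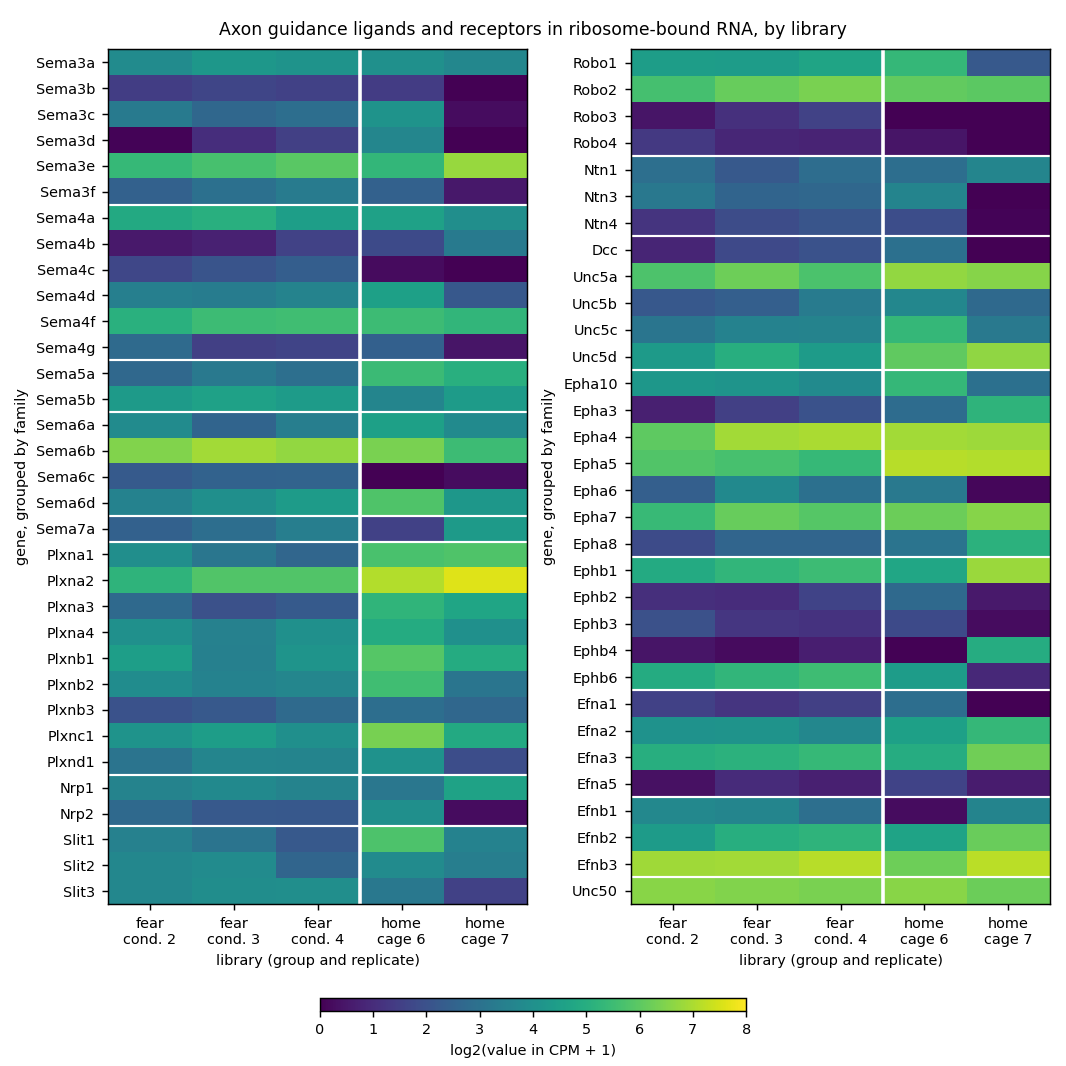
Values of the 65 guidance genes in each library as log2(CPM + 1), grouped by family, with a white line between the 3 fear conditioned and the 2 home cage libraries. Plxna1, Plxna2, Plxna3, Sema5a, Unc5d and Epha5 are brighter in both home cage columns, and 8 genes at 0 CPM darken the column of home cage replicate 7.

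The home cage libraries often differed from each other in guidance genes. They lay more than 2 log2 units apart in 22 of the 62 genes tested (35.5%), of which 16 were higher in replicate 6 and 6 in replicate 7, while 26.4% of all genes tested lay as far apart. The median difference was 1.48 log2 units, against 1.08 over all genes. Among the 3 fear conditioned libraries no guidance gene spanned more than 2 log2 units, and the median span was 0.60, against 0.44 over all genes. Of the 65 genes, 8 were at 0 in replicate 7 (Dcc, Efna1, Ntn3, Robo3, Robo4, Sema3b, Sema3d and Sema4c), 2 in replicate 6 (Robo3 and Sema6c) and none in a fear conditioned library.

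**Figure D5:**
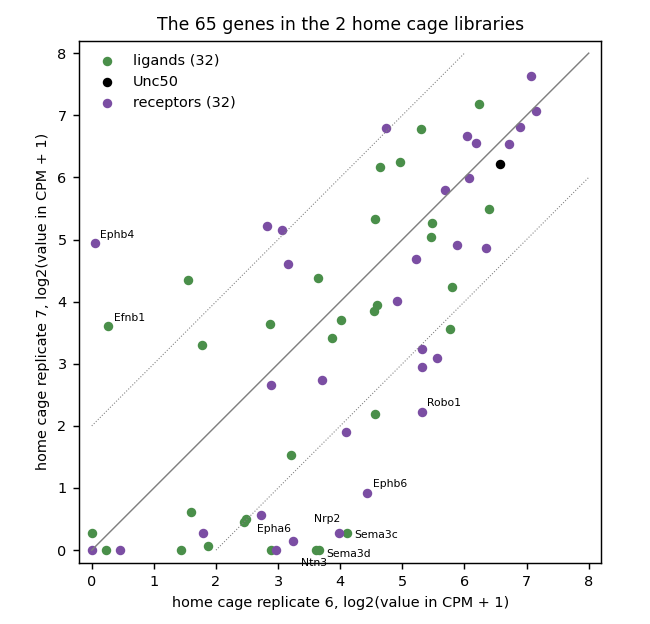
The 65 guidance genes in home cage replicate 6 (horizontal axis) and replicate 7 (vertical axis), as log2(CPM + 1), with the diagonal and dotted lines 2 log2 units from it. Genes named are more than 3 log2 units apart, among them Ephb4 and Efnb1, high in replicate 7, and Nrp2, Sema3c and Sema3d, high in replicate 6.

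Because the controls differed, the comparison was repeated with each of them alone, on the assumption that a lone control varies like the fear conditioned libraries. Against home cage replicate 7 alone, 17 of 61 guidance genes passed both cutoffs as lower and 21 as higher, where 24.2% and 36.2% of all genes did. Against replicate 6 alone, 20 of 61 passed as lower and 5 as higher, where 15.7% and 11.8% of all genes did. Of the 60 tested in both fits, 6 passed as lower against either control (Epha5, Plxna1, Plxna2, Plxna3, Sema5a and Unc5d), where 4.43% of all genes did. Sema4c and Sema6c passed as higher against either, 3.33% of the guidance genes where 6.23% of all genes did. Another 6 passed in opposite directions (Efna1, Epha10, Nrp2, Sema3c, Sema4d and Sema7a), where 6.71% of all genes did, so the sign of their difference was set by which control was used.

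DESeq2 on recovered reads called 9 of the 65 guidance genes lower (13.8%, against 4.42% of all genes) and 2 higher (3.08%, against 4.53%). The lower genes were Epha3, Epha5, Ephb4, Plxna1, Plxna2, Plxna3, Plxnc1, Sema5a and Unc5d, and the higher ones Sema4c and Sema6c. Of these, Sema4c and Sema6c reached 1 CPM only after fear conditioning, and Ephb4 only in home cage replicate 7. As every gene listed reached that level in some library, their calls were partly set by which genes are listed. The lowest adjusted p-values in DESeq2 were those of Sema5a (1.1e-05), Epha5 (1.38e-05) and Plxna3 (2.94e-05). Ephb4 was called lower with an adjusted p of 0.046 in DESeq2 although its home cage libraries held 1 read and 29.8 CPM. The edgeR quasi-likelihood test, limma voom and limma with array weights called 0 guidance genes, and each called 0 of all genes.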

How the data were processed

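Ribosome-bound RNA was measured in 5 libraries, each a separate pool of 3 mice, so p-values measure the spread between pools. The authors made libraries with SMARTer and Nextera XT kits and analysed them with software their methods call Tuxedo DESeq. The submitters' processing notes name DESeq and genome build mm8, and the aligner, annotation and use of strand are not given in the sources used here. The deposited signal of each gene is in CPM of an effective library size, beside a gene length. All values (100%) were whole multiples of 1 read, within 0.01, and these reads were recovered. The design had assumed either counts or normalized values.

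Groups were compared with limma 3.58.1 (two-sided, empirical Bayes with a trend) on log2(CPM + 1) for genes with a mean of at least 1 CPM, with Benjamini-Hochberg adjustment over 13560 genes. Recovered reads were tested with edgeR 4.0.16, DESeq2 1.42.0 and limma voom under R 4.3.3, and the fits were tested on simulated data. Other alternatives were a pseudocount of 0.1, other filters on low values, quantile or TMM scaling, array weights, and each library left out. The genes and lists were chosen with earlier results of these data known. Values were given in full for the gene with the highest mean in each of 15 families, the 12 with the smallest unadjusted p, and every gene called by limma or DESeq2, 25 in all. Promoters came from RefSeq by gene identifier or symbol.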

Additional observations from a re-analysis of the deposited data

How the results depend on the processing

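The median log2 fold change of the guidance genes (-0.24) moved to -0.54 among genes at 1 CPM or more in all libraries, -0.56 in edgeR and -0.59 in DESeq2, and lay between -0.60 and -0.10 with each library left out. The genes higher at an unadjusted p under 0.05 (3) were 1 under that filter, which tests fewer genes, and numbered 1 to 21 with a library left out. The lower ones (10) became 6 with array weights and 7 to 25 with a library left out. Past both cutoffs there were 11 in DESeq2 and 0 to 38 with a library left out, where the extremes came without home cage replicate 6 (38) or replicate 7 (25). Genes above both controls (7) numbered 2 under that filter and 7 to 25 with a library left out, and those below both (15) numbered 15 to 33. The upper ends of all these ranges came from fits without a home cage library, in which more of all genes passed both cutoffs too. The size of the counts at those upper ends alone thus does not set guidance genes apart. How many of all genes were without overlap in these fits was not tested. Shares of all genes higher or lower at an unadjusted p under 0.05 in these fits were not compared either. Of other guidance genes, 18 of 110 passed in DESeq2 (8.94% of all genes) and 0 to 71 with a library left out, the 71 of 109 without home cage replicate 6, where 60.5% of all genes passed. The cause was not tested.

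Of 345 values of the 25 genes described in full, 285 kept direction and call, 39 became calls and 21 turned sign. Calls against a lone control are among these, and they rest on the spread of the fear conditioned libraries only. Sema7a turned to 0.10 (pseudocount of 0.1), 0.049 (quantile), 0.21 (array weights) and 0.56 (voom), and lay between -1.41 and 1.39 with a library left out. Sema4f turned to -0.015 in DESeq2 and -0.00073 in voom, with -0.10 to 0.15 when a library was left out. The others turned only with a library left out, where Robo2 lay between -0.14 and 0.22, Epha4 between -0.40 and 0.080, Ephb1 between -1.57 and 0.49, Nrp1 between -0.96 and 0.48, Sema3e between -1.11 and 0.37, Efna3 between -1.09 and 0.21 and Efnb3 between -0.21 and 0.73.

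No paired analysis was possible because the groups share no replicate numbers. An exact permutation test of 3 against 2 libraries cannot go below p = 0.1 (two-sided). Array weights gave the home cage libraries 0.172 each, against 1.96 to 7.07 for the fear conditioned ones. Values under the floor of 3 reads cannot be told from absence.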

Other observations

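Beyond the ligands and receptors, the intracellular effectors of guidance (62 genes found, all tested) had a median log2 fold change of 0.16, against 0.08 over all genes. At an unadjusted p under 0.05 in limma 10 were higher and 6 lower, where 9.49% and 7.32% of all genes were. Rhoa, the GTPase that plexins and Eph receptors act on, was at 153, 148 and 167 CPM after fear conditioning and at 56.3 and 62.8 CPM in the home cage. Pak3, a kinase of the Rac and Cdc42 pathway, lay the other way, at 83.2, 118 and 98.5 CPM against 212 and 202 CPM. Farp2, a Rac exchange factor bound by A plexins, was at 6.16, 9.66 and 8.94 CPM against 1.14 and 0.211 CPM. With a home cage mean of 0.673 CPM it passed the filter on low values only through the fear conditioned group. Its difference was thus partly set by the filter. Gripap1, a scaffold partner, was at 185, 243 and 178 CPM against 109 and 78.8 CPM. Each of these 4 genes had an adjusted p of 0.197 in limma. They were taken as those of the list with the smallest unadjusted p. That their groups did not overlap was largely set by this choice. In the whole list 15 genes lay above both controls in every fear conditioned library and 13 below. Of all genes, 20.2% and 16.1% did so.

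Other guidance ligands and adhesion receptors (47 tested) had a median of -0.18, with 2 higher and 8 lower at an unadjusted p under 0.05, beside the same 9.49% and 7.32% of all genes. Chl1, an adhesion molecule that associates with semaphorin receptors, was at 38.9, 36.2 and 35.3 CPM after fear conditioning and at 213 and 120.3 CPM in the home cage. Ptprs, a phosphatase receptor for proteoglycans, was at 190, 192 and 181 CPM against 369 and 523 CPM. Cntn3, a contactin, was at 11.5, 11.4 and 11.6 CPM against 34.2 and 55.7 CPM, and Nfasc, of the axon initial segment and the node, was at 47.4, 40.4 and 55.6 CPM against 94.2 and 128 CPM. All 4 lay below both controls in every fear conditioned library, each with an adjusted p of 0.197 in limma. They too were taken for the smallest unadjusted p of their list, which largely set that separation. Of the 47 genes, 2 lay above both controls and 11 below, beside the same 20.2% and 16.1% of all genes. None of the 109 other guidance genes tested passed both cutoffs, where 0% of all genes passed. The part that the astrocyte, oligodendrocyte and choroid plexus signal of the home cage libraries plays in these values was not tested.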
